A study of Mus musculus with 96 samples.

Results

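The clustered protocadherins are a family of neuronal adhesion proteins whose genes lie in 3 tandem clusters, named alpha, beta and gamma. Members were chosen by gene symbol alone, as every row of the count table that starts with Pcdha, Pcdhb or Pcdhg and goes on with a digit, a, b or c. This gave 55 of 35486 rows: 12 alpha, 22 beta and 21 gamma rows. No measured value enters that rule, but the family was taken up when a rise of Pcdhb14 and Pcdhb9 with age in these libraries was already known, so the age values of those 2 genes are given below as a description.

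Bulk mRNA was sequenced from brain tissue of 38 male C57BL/6J mice, as 96 libraries. Experiment 1 covers 29 mice in 8 groups, each with a library of hippocampus, of cortex and of cerebellum. Naive mice had no injection and were 2 months (4 mice) or 18 months old (3 mice). At 18 months, 4 mice had 7 injections of PBS, a buffered saline that serves as vehicle, and 5 had 7 injections of young plasma, while mice of 22 months received the same number of PBS (3 mice) or plasma injections (3 mice). Mice of 19 months received 24 injections of PBS (4 mice, called long PBS) or plasma (3 mice, called long plasma). Experiment 2 held the hippocampus of 9 further mice of 18 months, 4 with 7 injections of PBS and 5 with plasma. The youngest mice are labelled 2 months, while the design text of the series calls them 3 months old. Plasma groups differ from PBS groups in the injected fluid, and naive mice differ from PBS mice in the whole injection procedure.

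As background, each gene of the alpha and gamma clusters has its own large first exon, which codes for the extracellular and membrane-spanning part. This exon is spliced to constant exons at the end of the cluster that code for a common intracellular part. Genes of the beta cluster are single exons with no constant part. A single neuron is known to express a small, largely random set of alternate members, so that its surface carries a nearly private combination, and proteins with the same extracellular part on contacting cells bind each other. The C-type members (Pcdhac1, Pcdhac2, Pcdhgc3, Pcdhgc4 and Pcdhgc5) sit at the end of their clusters and are expressed less randomly. The family is known for self-avoidance of dendrites, the spacing of axons and the survival of interneurons.

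All members lie on the forward strand of chromosome 18 of GRCm38, the build that the submitters name, with positions here from the GENCODE annotation of that build. The alpha rows span positions 36930184 to 37187661, the beta rows 37264938 to 37524479 and the gamma rows 37661793 to 37841873. In the annotation, 2860 bases of exon are common to all alpha genes and 2116 bases to all gamma genes, while no stretch is common to the beta genes. The deposited alpha rows were nearly equal to each other within a library, and so were the gamma rows. The lowest alpha row was 92.6% to 99.2% of the median alpha row (median 96.1%), and the lowest gamma row was 94.5% to 98.9% of the median gamma row (median 97.8%). This is the pattern that results when reads of the constant exons are counted in every row of their cluster, but the counting tool is not given in the sources used here. A second table was made for this reason, after these values had been seen: the lowest alpha and the lowest gamma row of a library stood for the shared reads, and each alpha or gamma member kept only its reads beyond them, called own reads. Own reads are a lower bound, because a member that fills the lowest row is set to 0. Pcdhgb1 and Pcdhga4 are an exception, as they have exon bases in common beyond the constant exons. Bases found in no other member are 2622 of 5776 for Pcdhgb1 and 1570 of 4727 for Pcdhga4. Reads of their common bases can count as own in both. Pcdhgb4 and Pcdhga8 overlap as well, by fewer bases. Beta rows are the same in both tables. Levels are given as CPM, counts scaled to a library total of 1000000, and differences on the log2 scale with TMM scaling.

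**Figure D1:**
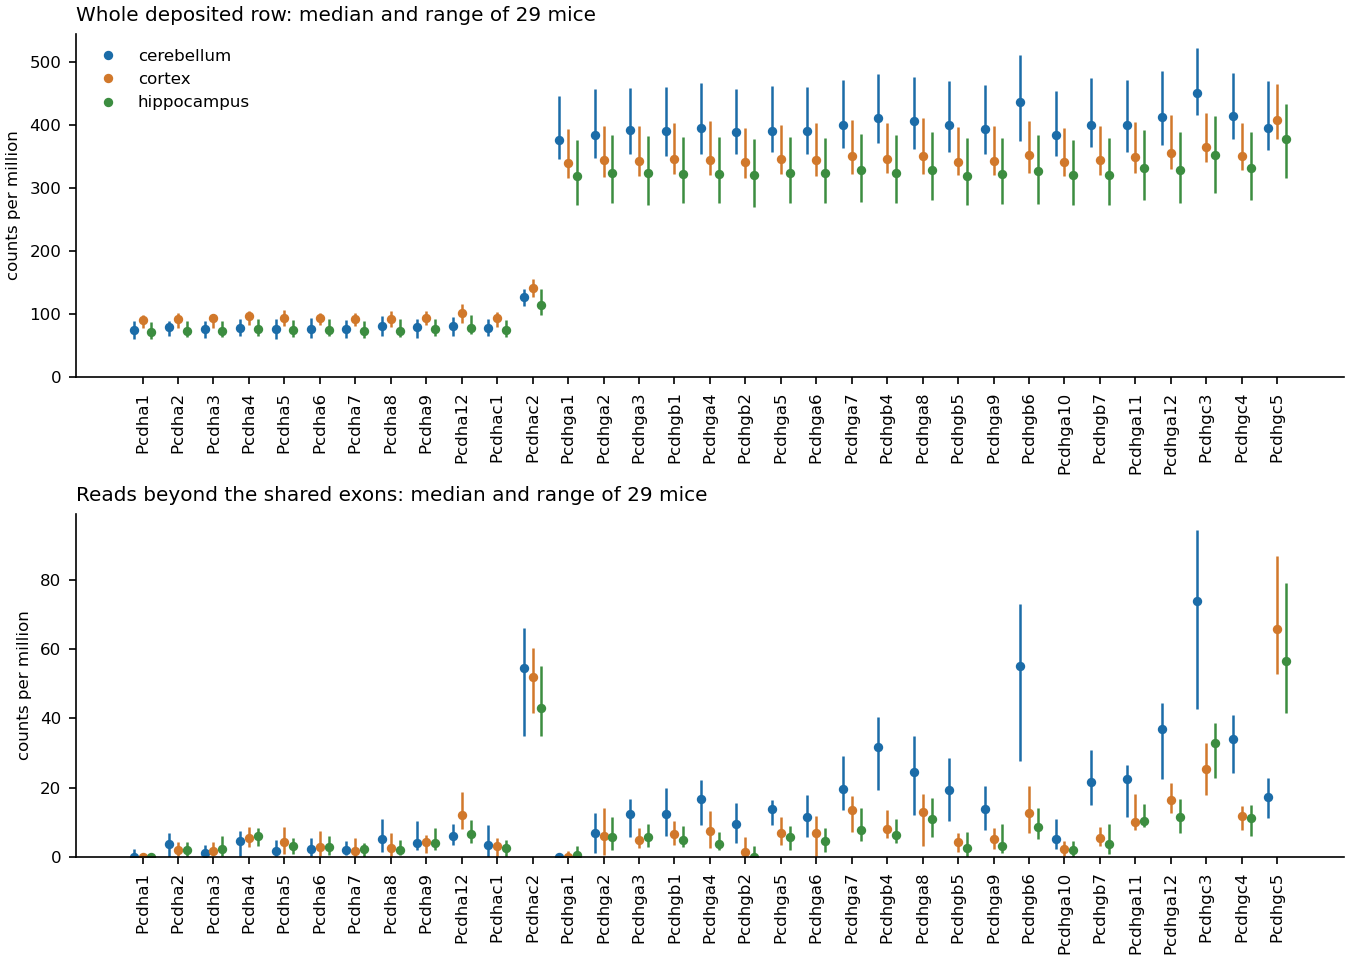
Reads in CPM (y axis) for the 12 alpha and 21 gamma members (x axis) in the cerebellum, cortex and hippocampus of 29 mice; points are medians and lines the lowest to the highest mouse. The whole rows in the upper panel form 2 nearly level steps with Pcdhac2 above the first, while the reads beyond the shared exons in the lower panel range from a median of 0 for Pcdha1 to 73.8 for Pcdhgc3 in the cerebellum.

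Libraries held between 851288 and 23768385 counts (median 8889509). Of the 96 libraries, 7 held fewer than 2500000 counts and 7 had low levels of the marker genes of their own region, with 1 library in both sets. The set with low markers includes the naive 2-month hippocampus replicates 14 and 20. Summed cerebellum markers ran from 4545 to 6234 CPM in the cerebellum, 124 to 225 in the cortex and 115 to 281 in the hippocampus of experiment 1. Pcdhb1 had counts in 41 libraries, 130 in all, and did not pass the filter on low counts in any fit; the other 54 deposited rows were tested in each fit. In bulk tissue, fewer cells that express a gene and less RNA of it per cell cannot be told apart.

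Per length of own exon, a few members led each cluster, and the leader of the gamma cluster differed between the cerebellum and the other regions. Among alpha members, Pcdhac2, which serotonergic axons need for their spacing, was the highest in every region, at a median of 18 own CPM per kilobase in cerebellum, 17.1 in cortex and 14.2 in hippocampus. The next alpha member was Pcdha12 in every region, at 2.48, 4.88 and 2.68 in the same order. Among beta members, Pcdhb9 was the highest in every region, at 5.37, 7.04 and 7.76 CPM per kilobase. It was followed by Pcdhb20 in the cerebellum (4.61) and the cortex (3.96) and by Pcdhb7 in the hippocampus (3.27). Among gamma members, Pcdhgc3 (21.8) and Pcdhgb6 (21.5) led in the cerebellum, with ranges that overlapped (12.6 to 27.9 and 10.8 to 28.5). In the cortex and hippocampus Pcdhgc5 led with 12 and 10.3, and Pcdhgc3 followed with 7.52 and 9.74.

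The gamma cluster showed the widest differences between regions. Its shared reads differed little, with medians of 375 CPM in cerebellum (345 to 446 over 29 mice), 339 in cortex (315 to 393) and 318 in hippocampus (269 to 375). Its own reads, summed over the members, had medians of 462 CPM in cerebellum (361 to 583), 234 in cortex (195 to 281) and 198 in hippocampus (166 to 242), so that the cerebellum did not overlap with the other regions. Summed per kilobase of own exon, these own reads were 85.6% of the shared reads per kilobase in cerebellum, 43% in cortex and 39.3% in hippocampus. The same share for the alpha cluster was 120%, 106% and 111%. Own exons lie upstream of the constant exons, and the evenness of coverage along transcripts was not measured.

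Pcdhgc5, a C-type member that is known to appear after birth and to bind GABA receptors, went against the other gamma members. It had 17.4 own CPM in the cerebellum (median; 11.2 to 22.7), 65.9 in the cortex (52.9 to 86.7) and 56.6 in the hippocampus (41.4 to 78.9). It was higher in the cortex than in the cerebellum of the same mouse in 29 of 29 mice, by 2.12 ± 0.05 (log2 difference ± SE; edgeR's quasi-likelihood test, adjusted p = 7.64e-52), and the ranges did not overlap. The hippocampus exceeded the cerebellum by 1.86 ± 0.05 in the same test, again in 29 of 29 mice. The deposited Pcdhgc5 row, most of whose reads are shared, differed between hippocampus and cerebellum by 0.09 ± 0.03 with TMM scaling and by -0.07 with total counts.

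Pcdhgc3, which promotes the branching of cortical dendrites, and Pcdhgc4, which interneurons need to survive, were highest in the cerebellum. Pcdhgc3 had 73.8 own CPM in cerebellum (42.7 to 94.3), 25.4 in cortex (17.8 to 33) and 32.9 in hippocampus (22.7 to 38.6). Its log2 difference was -1.42 ± 0.05 for cortex against cerebellum and -1.09 ± 0.05 for hippocampus against cerebellum, each in 29 of 29 mice. Pcdhgc4 had 34 own CPM in cerebellum (24.2 to 40.9), 11.9 in cortex (7.77 to 14.8) and 11.3 in hippocampus (6.04 to 15.1). It was lower by log2 differences of -1.37 ± 0.06 in the cortex and -1.50 ± 0.06 in the hippocampus than in the cerebellum, with no overlap of the ranges. Between hippocampus and cortex, Pcdhgc3 was higher in the hippocampus by 0.33 ± 0.05, in 26 of 29 mice, and Pcdhgc4 was not past the threshold (-0.13 ± 0.06, adjusted p = 0.0702 in edgeR's test).

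**Figure D2:**
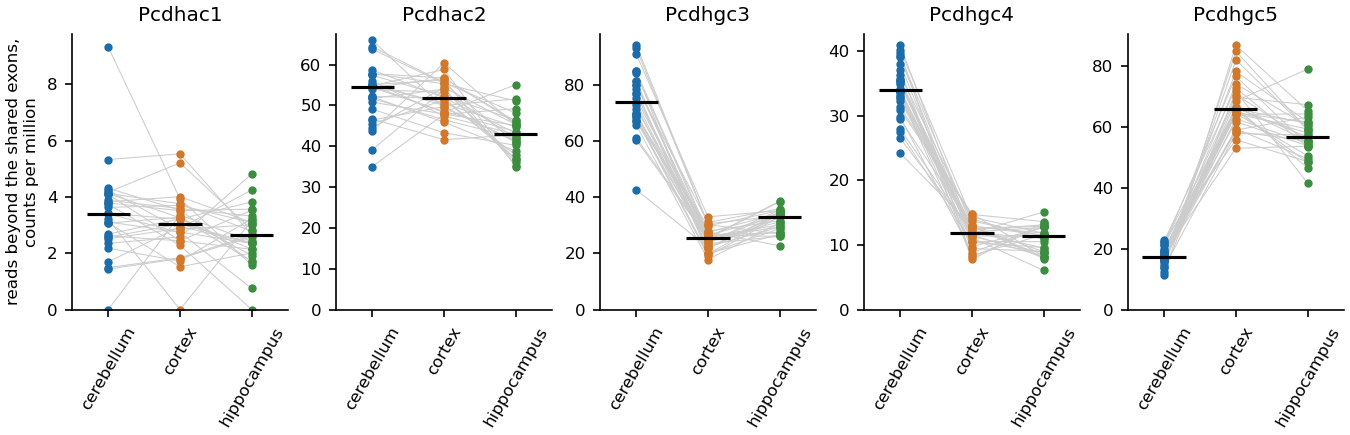
Own reads of the 5 C-type members in CPM (y axis) in each region (x axis); each point is 1 of 29 mice of experiment 1, grey lines join the regions of a mouse and black bars are medians. Pcdhgc3 and Pcdhgc4 are high in the cerebellum and Pcdhgc5 in the cortex and hippocampus, while Pcdhac1 and Pcdhac2 overlap between regions.

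Other gamma members were also lower outside the cerebellum, among them the B-type members Pcdhgb4, Pcdhgb5, Pcdhgb6 and Pcdhgb7. Pcdhgb6 had 55.1 own CPM in cerebellum (27.8 to 73), 12.8 in cortex (6.86 to 20.5) and 8.64 in hippocampus (5.24 to 14.2). Its log2 difference from the cerebellum was -1.87 ± 0.07 in the cortex and -2.41 ± 0.08 in the hippocampus. Pcdhgb4 (-1.69 ± 0.07 in the cortex and -2.20 ± 0.08 in the hippocampus), Pcdhgb5 (-2.02 ± 0.14 and -2.74 ± 0.15) and Pcdhgb7 (-1.92 ± 0.12 and -2.41 ± 0.12) showed differences of like size. All 4 were lower than the cerebellum of the same mouse in 29 of 29 mice in both regions. The B-type member Pcdhgb1 differed less (-0.70 in the cortex and -1.15 in the hippocampus) than the A-type member Pcdhga9 (-1.26 and -1.88). Pcdhga4, also of the A type, had 16.6 own CPM in cerebellum, 7.4 in cortex and 3.69 in hippocampus, and was the member farthest apart between hippocampus and cortex among those with counts in most libraries (-1.11 ± 0.09). Own reads of Pcdhga4 can include reads in common with Pcdhgb1. Of 21 gamma members, 18 were lower and 1 higher in the cortex than in the cerebellum, where 43% of all genes were lower and 40.3% higher. In the hippocampus 18 were lower and 2 higher, where 43.2% of all genes were lower and 40.9% higher; the 2 are Pcdhgc5 and Pcdhga1, which is at 0 own reads in every cerebellum library. Scaling by total counts gave the same numbers of gamma members.

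Within the alpha and beta clusters, some single members differed more between regions than the shared alpha reads or the beta sum did. Shared alpha reads had medians of 74.8 CPM in cerebellum (60.5 to 88.4), 89.9 in cortex (77.2 to 97.8) and 70.6 in hippocampus (60.6 to 87.6). They were higher in the cortex than in the cerebellum of the same mouse in 29 of 29 mice, by 0.45 ± 0.03, and lower in the hippocampus than in the cortex in 29 of 29 mice, by a log2 difference of -0.36 ± 0.03. Pcdha12 had 12.1 own CPM in the cortex (8.15 to 18.6), 6.14 in the cerebellum (3.52 to 9.4) and 6.63 in the hippocampus (4.15 to 10.7). It was higher in the cortex than in the cerebellum by 1.12 ± 0.09. Pcdha5 was higher than in the cerebellum by 1.73 ± 0.18 in the cortex and 1.08 ± 0.18 in the hippocampus, from a median of 1.7 own CPM. Pcdha8 had 5.13 own CPM in cerebellum against 2.45 in cortex and 2.06 in hippocampus, and differed from the cerebellum by -1.03 ± 0.18 in the hippocampus. For Pcdhac2 the sign of the cortex difference depended on the scaling (0.12 ± 0.04 with TMM, -0.05 with total counts), and for Pcdhac1 no region pair passed the threshold.

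The beta sum had medians of 178 CPM in cerebellum (156 to 216), 184 in cortex (132 to 213) and 168 in hippocampus (112 to 206). Pcdhb3, Pcdhb5 and Pcdhb7 were lower in the cerebellum than in the other regions, while Pcdhb4 and Pcdhb6, which lie between them, differed less (0.37 and 0.32 for hippocampus against cerebellum). Pcdhb3 had 2.8 CPM in cerebellum (0 to 4.74), 6.74 in cortex (3.59 to 10.6) and 5.81 in hippocampus (1.65 to 8.61). The log2 difference from the cerebellum was 1.33 ± 0.09 in the cortex and 1.14 ± 0.09 in the hippocampus for Pcdhb3, and 1.42 ± 0.11 and 1.31 ± 0.11 for Pcdhb5. Pcdhb7 had 4.64, 9.09 and 11.4 CPM in cerebellum, cortex and hippocampus. It was the only beta member above the threshold as higher in the hippocampus than in the cortex in these fits, by 0.33 ± 0.07. Pcdhb14 was highest in cerebellum, at 24.7 CPM (14.5 to 30.1) against 13.8 in cortex (7.82 to 20.2) and 12.9 in hippocampus (5.51 to 21.5), and the cerebellum was the higher in 29 of 29 mice in both comparisons.

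**Figure D3:**
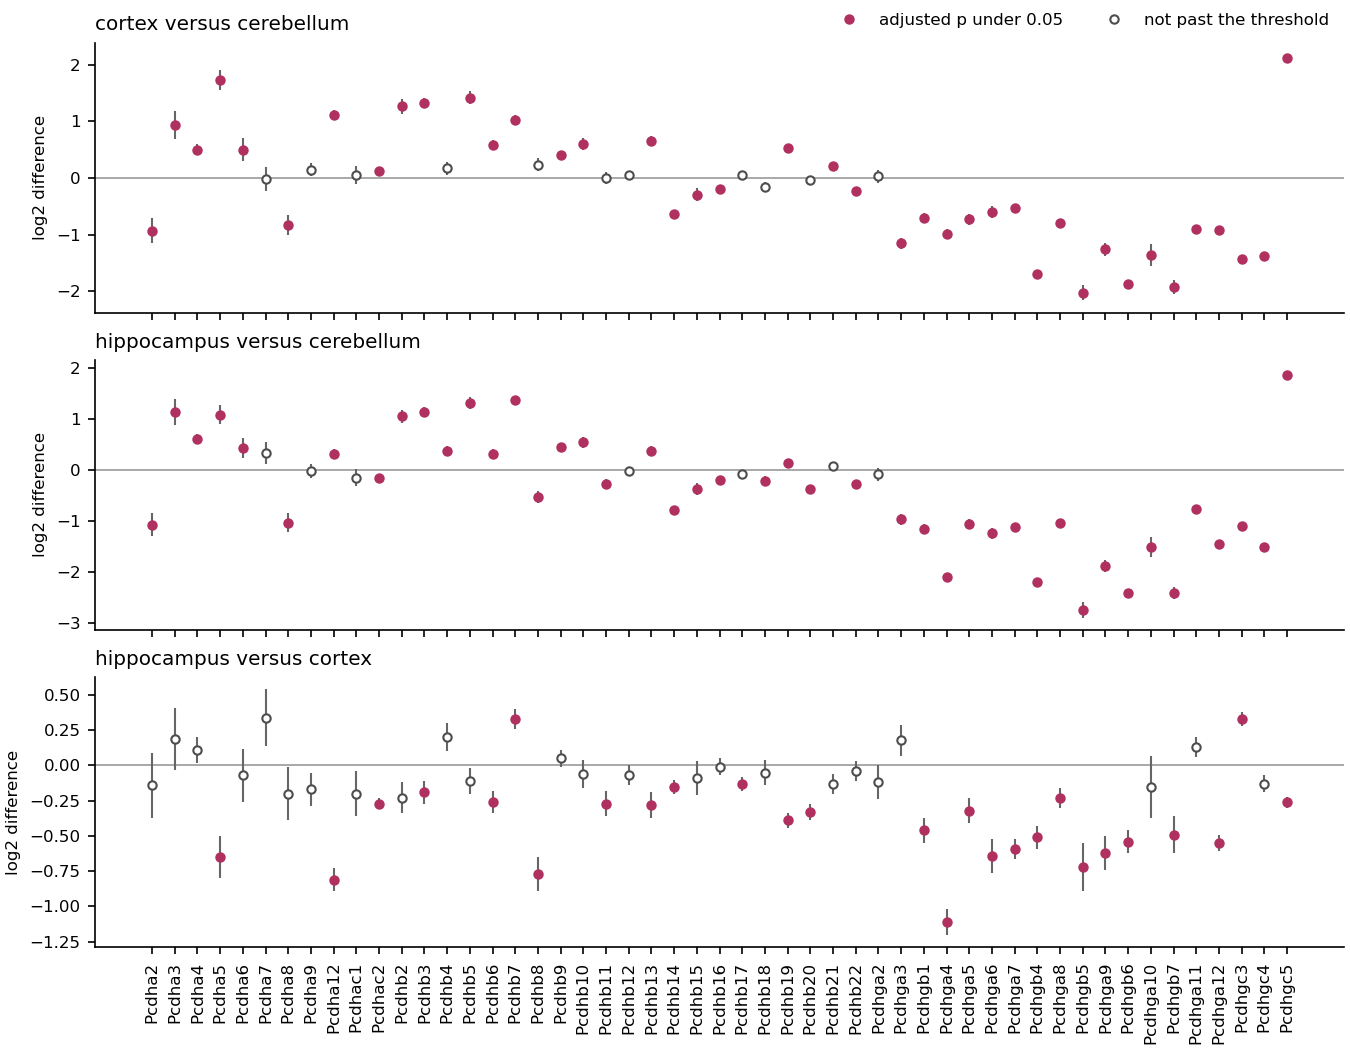
Log2 difference between regions with its standard error (y axis) for each member with its own reads (x axis, in cluster order), averaged over the 8 groups of experiment 1; filled points passed an adjusted p of 0.05 and open points did not. Pcdhb1, Pcdha1, Pcdhga1 and Pcdhgb2 are left out because most of their libraries are at or near 0 in a region. Gamma members other than Pcdhgc5, and Pcdhga2 in the cortex, lie below 0 against the cerebellum.

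Counted over the whole family, calls between regions were many, as they were for all genes. In the deposited rows, 29 of 54 members differed between cortex and cerebellum (23 higher and 6 lower in the cortex), where 83.3% of all genes did. Between hippocampus and cerebellum, 48 of 54 differed (20 higher and 28 lower, background 84.1%), and between hippocampus and cortex 43 of 54 (1 higher and 42 lower, background 60.3%). With total counts in place of TMM the first pair became 22 higher and 27 lower and the second 8 higher and 39 lower, and the median log2 difference of all genes moved from -0.02 to -0.19 and from -0.02 to -0.17. The deposited alpha or gamma rows share most reads, so these counts are not counts of separate genes. With own reads and the 2 shared parts as rows, 42 of 56 differed between cortex and cerebellum (background 83.4%). Of these, 18 were higher (40.3% of all genes) and 24 lower (43%). For hippocampus against cerebellum it was 48 of 56 (84.1%), with 18 higher (40.9%) and 30 lower (43.2%). For hippocampus against cortex it was 31 of 56 (60.1%), with 3 higher (29.9%) and 28 lower (30.2%). In naive 2-month libraries alone, 1 of these rows was called for that last pair. The share of all genes called there is not given, so nothing is read from the drop. The naive 2-month hippocampus replicates 14 and 20 had low markers. Among own-read rows, calls as a whole lay near or below the background in the 3 pairs, while the calls between hippocampus and cortex were nearly all lower in the hippocampus.

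Age was compared between naive mice of 18 and 2 months, to ask which genes differ in untreated ageing. In the cerebellum, own reads of 8 gamma members and 2 alpha members and the reads of Pcdhb14 rose by 18 months, and those of Pcdhgc3 fell. Pcdhgb6 had 36.3, 29.2, 27.8 and 35 own CPM in the 4 young mice and 51.3, 47.2 and 57 in the 3 mice of 18 months, a log2 change of 0.65 ± 0.13 (adjusted p = 0.00407). Pcdhga4 had 10.2, 9.48, 9.07 and 10.6 against 18.3, 17.5 and 18.3 own CPM (0.84 ± 0.18). Pcdhga12, the last A-type member, had 24.3, 23.5, 22.5 and 22.6 against 33.9, 34.4 and 37.5 own CPM (0.56 ± 0.13). In each of the 3 members, every older mouse lay above every young one. Pcdhga3 (0.84 ± 0.19), Pcdhgb1 (0.85 ± 0.17), Pcdhgb4 (0.49 ± 0.13), Pcdhga8 (0.76 ± 0.15) and Pcdhga9 (0.98 ± 0.18) also rose. Because Pcdhga4 and Pcdhgb1 have exon bases in common, their rises are not fully separate results. Of the alpha members, Pcdha4 (1.33 ± 0.34) and Pcdha8 (1.41 ± 0.38) rose from 0.365 to 3.57 and 1.45 to 4.4 own CPM in the young mice.

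Pcdhgc3 had 91, 84.8, 94.3 and 93 own CPM in the young cerebellum and 68.8, 67.1 and 78.6 at 18 months, and fell by a log2 change of -0.38 ± 0.10 (adjusted p = 0.0363 in edgeR's test). As a description, Pcdhb14, the beta member past the threshold, had 17.6, 16.4, 15.4 and 14.5 CPM in the young and 24.1, 28.4 and 24.7 CPM at 18 months, a log2 change of 0.66 ± 0.11. Shared gamma reads (0.04 ± 0.06) and shared alpha reads (0.09 ± 0.07) were not past the threshold. In all, 12 of 55 rows with own reads changed in the cerebellum, against 2.55% of all genes: 11 rose (1.38% of all genes rose) and 1 fell (1.18%). The rows that rose include Pcdhb14, whose rise was known beforehand. In the deposited rows only Pcdhb14 of 54 changed, against 2.39%, so nothing is read from that count. Summed own gamma reads per kilobase were 70.9% to 73.4% of the shared reads per kilobase in the young and 87.1% to 89.5% at 18 months. Own exons lie upstream of the constant exons, and the evenness of coverage was not measured by age either. Library totals were 3637025 to 5515064 counts in the young cerebellum and 5014473 to 8493605 at 18 months. Summed choroid plexus markers (8 of 8 listed) were 26.7 to 1099 CPM in the young and 1087 to 1527 at 18 months, and microglia markers (7 of 7) 118 to 137 and 181 to 201. Neuron markers (8 of 8) were 5745 to 5839 and 5398 to 5496. The part of these markers, of coverage and of library totals in the result was not tested.

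In the cortex, 4 of 55 rows with own reads were past the threshold at 18 months (background 0.128%) and 2 of 54 deposited rows (background 0.112%), all higher. Pcdhb14 and Pcdhb9 are both of the deposited rows and 2 of the 4 with own reads, so nothing is read from these counts against the background. As a description, Pcdhb14 had 7.82, 9.01, 8.9 and 8.18 CPM in the young and 13.8, 20.2 and 11.6 at 18 months, and Pcdhb9 had 9.3, 14.6, 11.1 and 9.13 against 22, 20.1 and 23.2 CPM. Pcdhga8 had 7.26, 5.97, 3.17 and 7.6 own CPM in the young and 11, 17.6 and 16.2 at 18 months (log2 change 1.35 ± 0.21, adjusted p = 0.00133 in edgeR's test). Pcdhga7 had 7.19, 7.05, 7.32 and 8.75 against 12.7, 14.2 and 14 own CPM (0.88 ± 0.18). The ages did not overlap in any of the 4. These calls are fragile: without the naive 18-month replicate 6, or with the compared groups fitted alone, 0 members passed in either table. Library totals were 5053543 to 14193346 counts in the young cortex and 1815609 (replicate 3) to 16885486 at 18 months. The young cortex replicate 14 had low cortex markers. Pcdhgc3 had 33, 27.5, 30.5 and 30.2 own CPM in the young cortex and 19.8, 23.9 and 20 at 18 months, but missed the threshold (-0.48 ± 0.15, adjusted p = 0.443). Neuron markers were 7296 to 8006 CPM in the young and 7477 to 8814 at 18 months.

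In the hippocampus no member passed the threshold in edgeR's test, in either table (background 0.0719% in both). An unadjusted p under 0.05 was found for 10 deposited rows and 12 rows of own reads. The share of all genes under that p is not given. Nothing is therefore read from these or the later counts at an unadjusted p. Pcdhb14 had 9.17, 8.68, 10.1 and 5.51 CPM in the young and 12.9, 21.5 and 12.2 at 18 months, and Pcdhb9 14.7, 11.4, 11.8 and 8.81 against 14.9, 20.5 and 25.6. No member's age change differed between regions past the threshold in the fit over all 87 libraries. The background of that test was 0.041% for cortex minus cerebellum, 0.0513% for hippocampus minus cerebellum and 0% for hippocampus minus cortex, in both tables. The lowest adjusted p of a member with own reads was 0.152, 0.228 and 1 in these tests, and 8, 13 and 6 rows had an unadjusted p under 0.05. A region with more calls is therefore not shown to differ in its age changes.

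The naive groups are small, so the 7 older groups of experiment 1 (18 to 22 months, naive and injected, 25 mice) were also compared as an equally weighted mean with the 4 naive mice of 2 months. This comparison was added after seeing the data, shares the young libraries with the comparison above and mixes age with the injections. In the cerebellum, 21 of 55 rows with own reads passed the threshold (background 9.53%): 18 were higher (4.5% of all genes) and 3 lower (5.03%) in the older mice. Pcdhb9 and Pcdhb14, whose rise was known beforehand, are among the higher rows in both tables, and their values are a description. All 25 older mice were above the highest young mouse for Pcdhb14 (20.3 to 30.1 against 14.5 to 17.6 CPM), Pcdhga4 (10.7 to 22.3 against 9.07 to 10.6), Pcdhga8 (17.1 to 34.9 against 12.1 to 16), Pcdhgb6 (43.7 to 73 against 27.8 to 36.3) and Pcdhga12 (28.7 to 44.3 against 22.5 to 24.3). All 25 were below the lowest young mouse for Pcdhgc3 (42.7 to 84.7 against 84.8 to 94.3). The log2 changes were 0.76 ± 0.10 for Pcdhgb6, 0.83 ± 0.12 for Pcdhga8 and -0.35 ± 0.07 for Pcdhgc3. Pcdhac2 fell by a log2 change of -0.30 ± 0.08, and Pcdhb18 by -0.54 ± 0.16. Pcdha4 (1.08 ± 0.27) and Pcdha8 (1.14 ± 0.31) rose too, and passed in 7 and 5 of 8 alternative settings. Pcdhac2 and Pcdhb18 passed in 5 of the 8. With a young library left out, 13 to 16 own-read rows passed, the lowest count being without replicate 12. In the deposited rows 7 of 54 passed (background 9.37%), and between 1 and 4 did when a young library, replicate 12, 14, 17 or 20, was left out.

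In the cortex, 14 of 55 rows with own reads passed (background 2.53%): 12 were higher (1.09% of all genes) and 2 lower (1.44%). The higher rows in both tables include Pcdhb9 and Pcdhb14, whose rise was known beforehand. The 25 older mice all exceeded the young for Pcdhga8 (8.49 to 18.1 against 3.17 to 7.6 own CPM), Pcdhga7 (9.13 to 17.7 against 7.05 to 8.75), Pcdhga4 (5.31 to 13.3 against 2.66 to 4.58) and Pcdhga2 (4.59 to 14.2 against 0.57 to 3.66). They also did for Pcdhb9 (18.8 to 28.8 against 9.13 to 14.6 CPM) and Pcdhb14 (11.1 to 20.2 against 7.82 to 9.01), as a description. Pcdhb2 (1.27 ± 0.22), Pcdhb3 (0.69 ± 0.17), Pcdhb5 (0.80 ± 0.17) and Pcdhb6 (0.92 ± 0.21) rose, while Pcdhgc3 (-0.35 ± 0.10, adjusted p = 0.0499 in edgeR's test) and Pcdhgc5 (-0.31 ± 0.07) fell. Of these calls, Pcdhb2 passed in 8 of 8 alternative settings, Pcdhb6 in 5, Pcdhb3, Pcdhb5 and Pcdhgc5 in 4, and Pcdhgc3 in 2. Deposited rows gave 6 of 54 (background 2.47%). Without the young replicate 12 or 20 the count of own-read rows was 8, without replicate 14 it was 9, and without the plasma groups it was also 9.

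In the hippocampus, 4 of 55 rows with own reads passed (background 0.797%), all higher (0.332% of all genes rose and 0.465% fell), and 3 of 54 deposited rows (background 0.791%). Pcdhb9 and Pcdhb14 are among these rows in both tables, so nothing is read from these counts against the background. As a description, Pcdhb9 had 14.9 to 29.9 CPM in the 25 older and 8.81 to 14.7 in the young mice, with no overlap. Pcdhb6 had 3.69 to 8.16 against 0.551 to 3.86 CPM (0.93 ± 0.20) and Pcdhga2 3.13 to 11.4 against 2.06 to 6.06 own CPM (1.05 ± 0.25), both with overlap, and each passed in 3 of 8 alternative settings. Without the libraries of low hippocampus markers, which include 2 of the 4 young ones, or without the plasma groups, 1 row remained past the threshold in each case. The beta sum was 145 to 206 CPM in the older and 112 to 143 in the young hippocampus, 167 to 213 and 132 to 158 in the cortex, and 156 to 216 and 159 to 175 in the cerebellum. It was thus apart between the ages in the cortex and hippocampus and overlapped in the cerebellum. The sum includes Pcdhb9 and Pcdhb14, whose rise was known beforehand, and no sum without them is given, so this is a description.

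**Figure D4:**
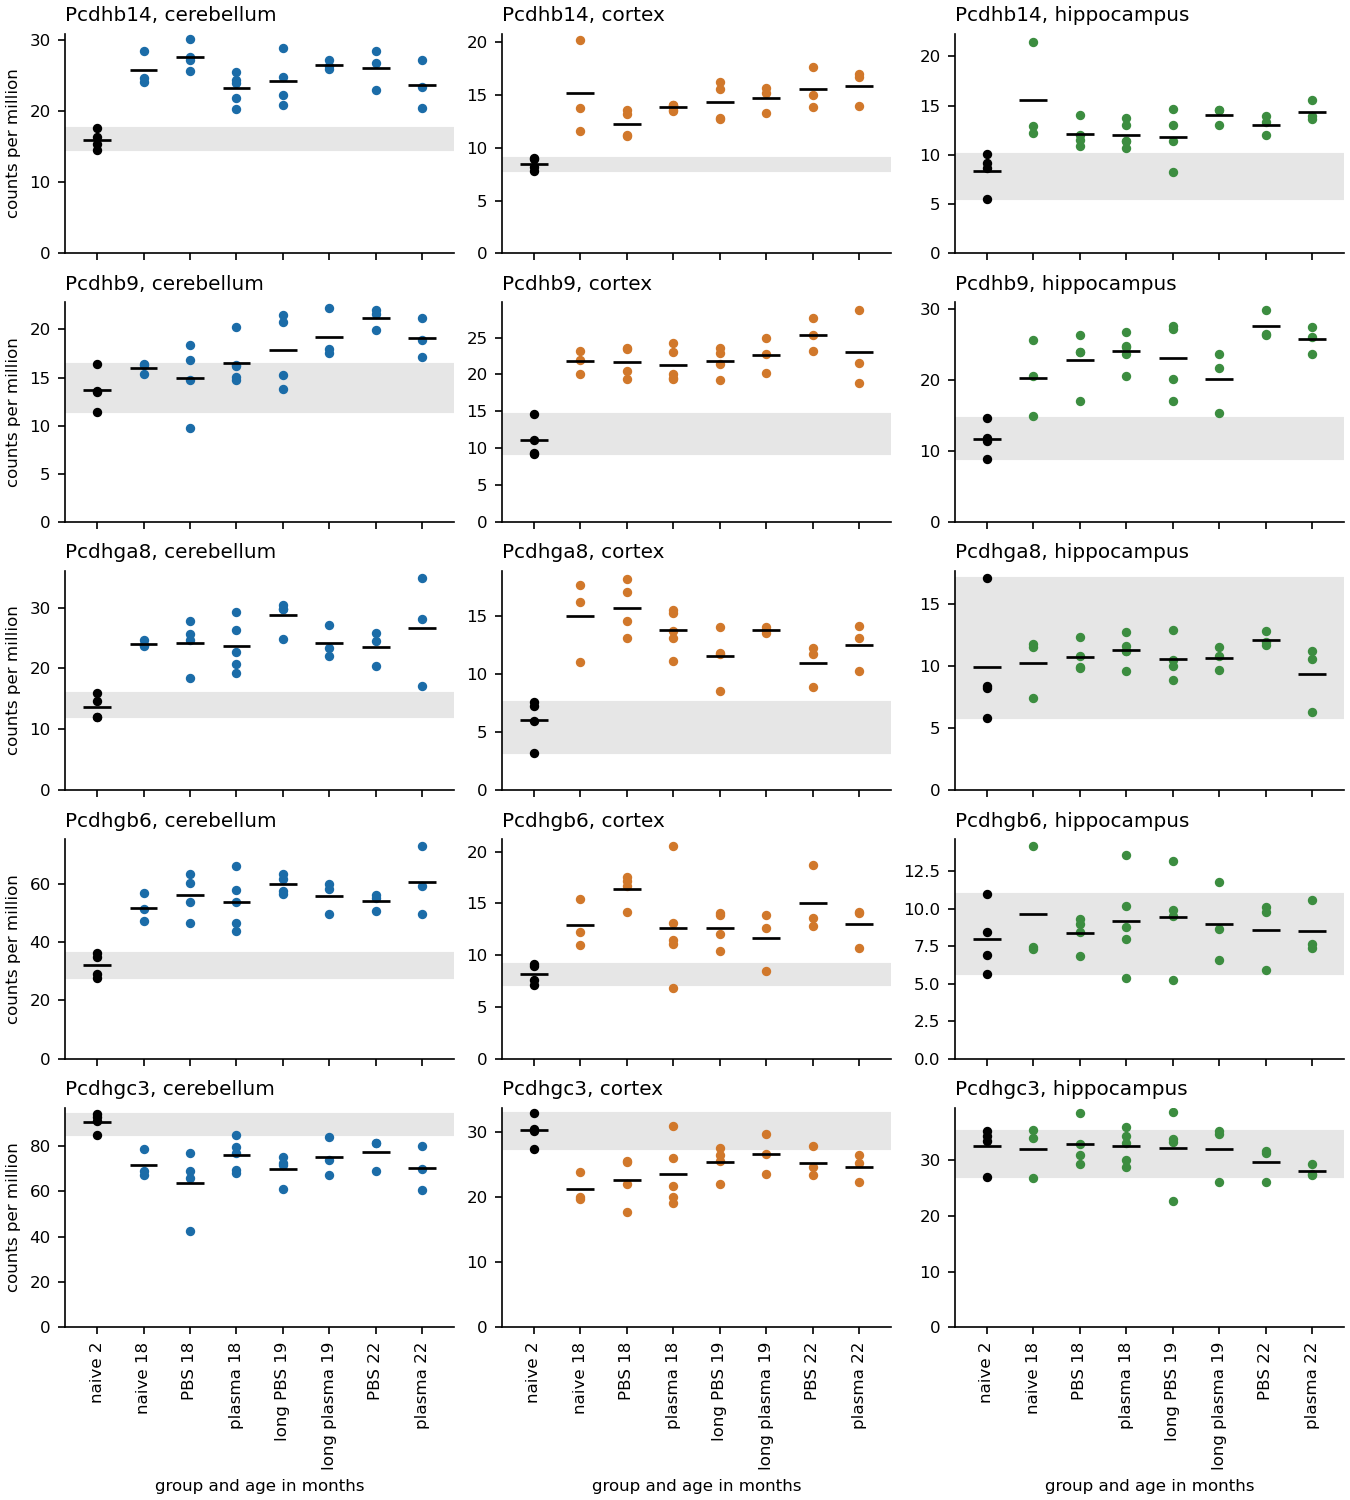
Reads in CPM (y axis; own reads for the gamma members) of 5 members in the 8 groups of experiment 1 by region (x axis: treatment and age in months); points are mice, black bars group means and grey bands the range of the 4 young mice. For Pcdhb14 and Pcdhgb6 in the cerebellum, Pcdhb9 in the cortex and hippocampus and Pcdhga8 in the cerebellum and cortex, all older mice lie above the band.

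Seen along the beta cluster, the older mice differed from the young mainly in its first part; this split was chosen after the values were seen and has no test. Of the 13 tested members from Pcdhb2 to Pcdhb14, 13 were higher in the older mice in the cortex (median log2 change 0.79), 13 in the hippocampus (0.58) and 11 in the cerebellum (0.35). Of the 8 members from Pcdhb15 to Pcdhb22, 2, 5 and 0 were higher in the same order of regions, with medians of -0.12, 0.03 and -0.22. The first part holds Pcdhb9 and Pcdhb14, whose rise was known beforehand.

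**Figure D5:**
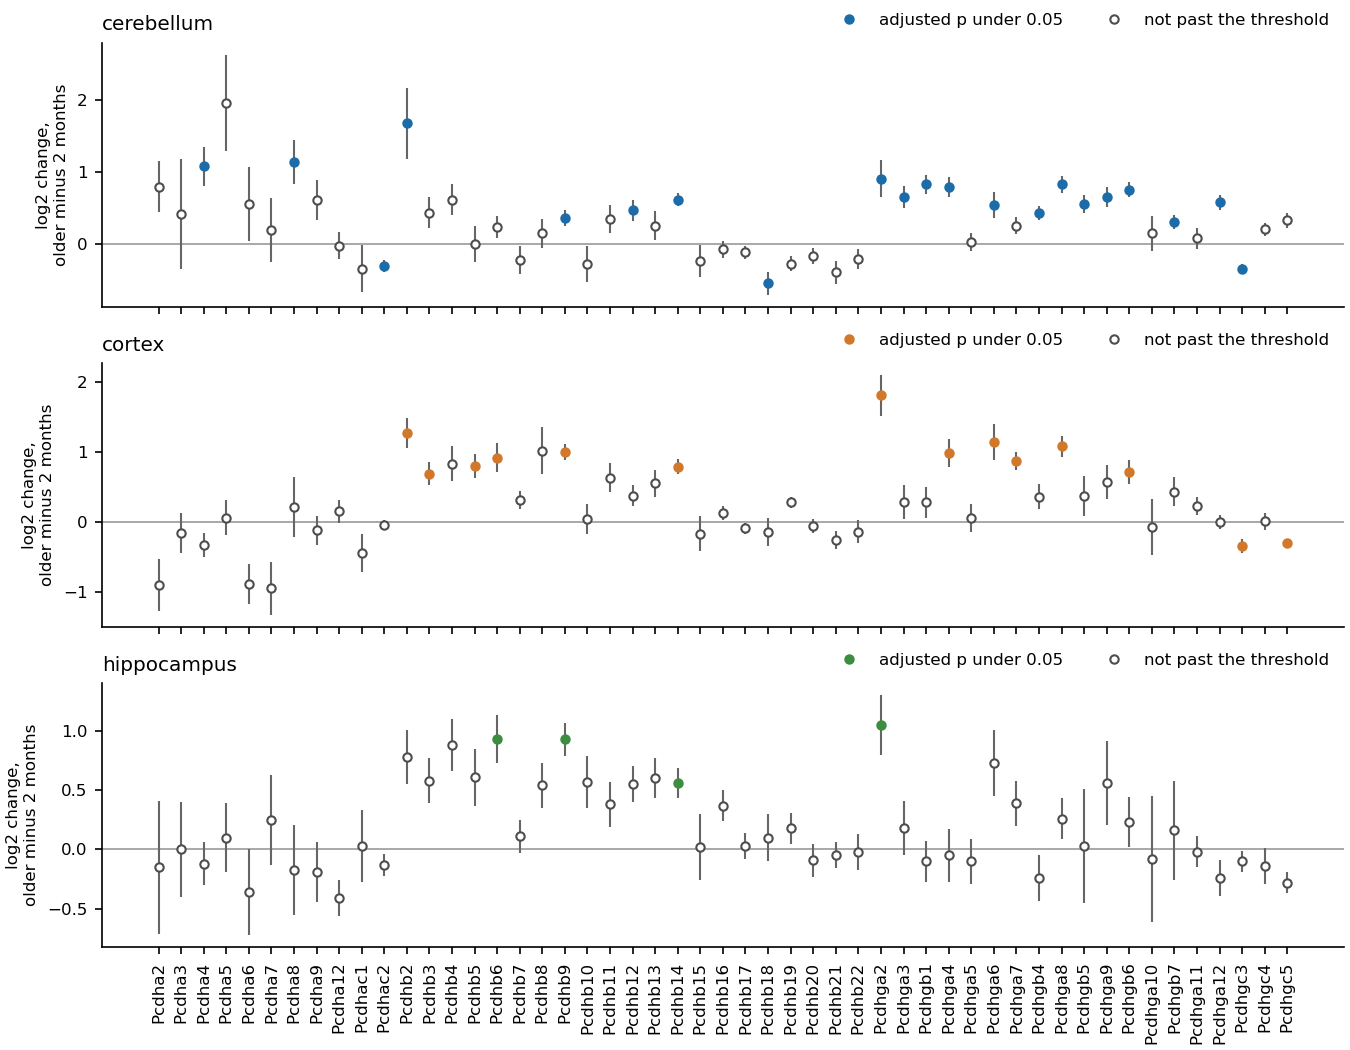
Log2 change of each member (x axis, in cluster order; own reads) between the mean of 7 older groups and naive mice of 2 months, with its standard error (y axis), by region; filled points passed an adjusted p of 0.05. Pcdhb1, Pcdha1, Pcdhga1 and Pcdhgb2 are left out because most of their libraries are at or near 0 in a region. In the cerebellum Pcdhgb2 had 3.88 to 15.7 own CPM. Filled points above 0 are beta members up to Pcdhb14 and A-type or B-type gamma members across the regions, and in the cerebellum also Pcdha4 and Pcdha8.

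Injections and plasma were compared to ask whether the vehicle or young plasma changes these genes in old mice. No member was past the threshold in edgeR's test, in either table, for PBS against naive mice at 18 months, for plasma against PBS at 18 or 22 months or for long plasma against long PBS, in any region, nor for plasma in experiment 2 or in both experiments together. In those comparisons 0% of all genes passed. Between 0 and 4 rows of own reads had an unadjusted p under 0.05 in each of these comparisons, with few exceptions. The exceptions were long plasma in the hippocampus (6), experiment 2 (5) and both experiments together (6). These counts include the rows of shared reads. Nothing is read from them, as the share of all genes under that p is not given. Pcdhb14 in the cerebellum averaged 27.6 CPM with PBS and 23.2 with plasma at 18 months, 26 and 23.7 at 22 months, and 24.2 with long PBS and 26.5 with long plasma. All of these group means lay above the 16 CPM of the young mice. For Pcdhac2 in the hippocampus at 18 months, plasma differed from PBS by -0.27 ± 0.11 in experiment 2 (adjusted p = 0.603 in edgeR's test) and by -0.11 ± 0.11 in experiment 1.

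For long plasma in the cerebellum, 21 of 54 deposited rows had an unadjusted p under 0.05 (lowest adjusted p = 0.674 in edgeR's test). In the table with own reads only 2 rows did, Pcdha5 and the shared gamma reads. The deposited gamma rows share their reads, so they are not separate results: shared gamma reads differed by -0.19 ± 0.06, with an adjusted p of 0.701. For long plasma in the hippocampus, 10 of 12 deposited alpha rows had an unadjusted p under 0.05 (lowest adjusted p = 1). These rows share their reads as well: shared alpha reads were 60.6 to 65.7 CPM with long plasma and 68.2 to 81.3 with long PBS, a difference of -0.21 ± 0.08 with an adjusted p of 1. Among these hippocampus libraries, long plasma replicate 23 and long PBS replicate 24 had low hippocampus markers. PBS mice of 22 months were also compared with PBS mice of 18 months. No member passed in either table, where 0.157% (deposited) and 0.0989% (own reads) of all genes did in cerebellum, 0.00533% in cortex in both tables and 0% in hippocampus. In that comparison 2 deposited rows and 4, 5 and 2 rows of own reads had an unadjusted p under 0.05 in the cerebellum, cortex and hippocampus. Nothing is read from the counts at an unadjusted p, as the share of all genes under it is not given.

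Genes around the family were followed through 3 lists that were drawn up by function. Of 12 non-clustered protocadherins, which are separate single genes of the same superfamily, 11 were tested, and 10 were higher and 0 lower in the cortex than in the cerebellum, where 40.3% of all genes were higher. Pcdh10 differed by 2.35 ± 0.07 and Pcdh8 by 2.84 ± 0.14. Their median log2 difference was 1.58, beside -0.02 for all genes. Of 20 genes for promoter choice, looping and silencing of the clusters, 19 were lower in the cortex (43% of all genes) and 19 lower (43.2%) and 1 higher (40.9%) in the hippocampus than in the cerebellum. They include the cohesin subunit Stag1 (-1.13 ± 0.03 in the cortex), the cohesin loader Nipbl (-0.84 ± 0.03) and the DNA methyltransferase Dnmt3a (-0.61 ± 0.03). Their medians were -0.50 and -0.58. Of 20 processing and signalling partners, 12 were higher and 5 lower in the cortex, a share called close to the 83.3% of all genes. Among them Ptk2b, a kinase that the intracellular parts of the proteins bind, was higher by 5.30 ± 0.09 and Wasf1, of the actin-regulating WAVE complex, was higher in the hippocampus by 1.95 ± 0.05.

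With age at 18 months in the cerebellum, 2.39% of all genes passed the threshold. Pcdh20 was the 1 of 11 non-clustered protocadherins that did, and fell by 0.60 on the log2 scale (SE 0.14, adjusted p = 0.0143 in edgeR's test). None of the 20 genes for promoter choice passed, with a median log2 change of 0.03. Of the 20 partners, Ptk2b passed and was higher by 1.72 ± 0.28. These calls are too few to be read as a result about the lists. No gene of the 3 lists passed at 18 months in the cortex (background 0.112%) or hippocampus (background 0.0719%). None passed in any plasma comparison, where no gene at all did.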

How the data were processed

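Raw gene counts of 96 libraries were taken as the authors deposited them. Per the submitters' processing notes, Trim Galore 0.3.7, STAR 2.5.3a, DESeq2 and GRCm38 were used; the counting tool and its annotation are not given in the sources used here. Per the labels' protocols, libraries were made with Smart-Seq2 and Nextera XT, which do not mark strand. Each region was fitted with edgeR 4.0.16 (R 4.3.3; TMM scaling, filterByExpr with a minimum count of 10 and a minimum total of 15, quasi-likelihood test, Benjamini-Hochberg adjustment over all genes tested, threshold 0.05). Region differences and differences of age changes came from a fit of the 87 libraries of experiment 1, averaged over 8 groups. Standard errors are the log2 change over the square root of F. CPM are counts scaled to 1000000 per library. Overlapping genes on opposite strands cannot be told apart without strand. Pcdhb21 and Pcdhb22 overlap in part on the same strand, where strand would not separate them. Pcdhgb1 and Pcdhga4, and Pcdhgb4 and Pcdhga8, also overlap beyond the constant exons.

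Both tables (deposited rows, and own reads with the shared parts) went through the same fits, which were also tested on simulated data. The members, lists and tests were chosen with earlier results of these data known. Named are the C-type members, members past the threshold within a region (up to 8), up to 4 per cluster and region pair with large differences, the 3 highest per cluster, and up to 4 genes per list; further members were named after their values were seen. Alternatives were RLE size factors, DESeq2 1.42.0, limma 3.58.1, other filters, fewer libraries, total counts and a replicate block. The labels tie the 3 regions to a mouse, so the block is the mouse; deviations of regions of a mouse correlated at a median of 0.0348 (cortex and cerebellum), 0.0256 (hippocampus and cerebellum) and 0.06 (hippocampus and cortex). Mice within a group are the replicates.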

Additional observations from a re-analysis of the deposited data

Results flagged for a closer look

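In 8 measures of the family (shared alpha reads, shared gamma reads, the beta sum and own reads of the 5 C-type members), 112 sets of libraries, each 1 measure in 1 group of 4 to 10, were searched for a library far from its group. This gap rule picks about 1 in 20 groups by chance, and it picked 4. Shared alpha reads were 88.4 CPM in the cerebellum of the 18-month PBS mouse of replicate 2, against 77.3 to 78.7 in the other 3 mice. They were 76.1 CPM in the cerebellum of long PBS replicate 28, against 70.8 to 71.7 in the other 3. Own reads of Pcdhac1 were 9.33 CPM in the cerebellum of long PBS replicate 24, against 2.35 to 3.4. In the hippocampus of the naive 2-month replicate 20, a library with low hippocampus markers, own reads of Pcdhac1 were 0 CPM, against 2.78 to 3.09.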

How the results depend on the processing

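The number of members past the threshold depended most on which libraries entered. For age at 18 months in the cortex it was 0 in both tables with the compared groups alone, and 0 to 2 (deposited rows) or 0 to 4 (own reads) when a replicate was left out. In naive 2-month libraries only, the deposited rows gave 19 (cortex against cerebellum), 22 (hippocampus against cerebellum) and 12 (hippocampus against cortex). Own reads gave 31 and 1 in the last 2 pairs. The share of all genes called in that setting is not given, so a drop particular to the family is not shown. The hippocampus libraries of that setting include replicates 14 and 20, which had low markers. Total counts in place of TMM gave 49 deposited rows between cortex and cerebellum. With limma-voom and sample weights, 1 row of own reads passed for the age change in cortex minus cerebellum. For older against young mice, leaving out the plasma groups gave 3, 3 and 1 deposited rows in cerebellum, cortex and hippocampus, and 9 and 1 rows of own reads in cortex and hippocampus. Leaving out a young replicate gave 1 to 4, 3 to 7 and 1 to 3 deposited rows in the 3 regions, and 13 to 16, 8 to 11 and 2 to 3 rows of own reads. In the hippocampus, leaving out libraries under 2500000 counts gave 1 deposited row and 2 rows of own reads, and leaving out those of low markers gave 1 in both. The cause of these shifts was not tested.

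Signs turned in small region differences. In naive 2-month libraries only, Pcdhgc4 was at 0.02 (cortex against cerebellum, deposited) and 0.00 (hippocampus against cortex, own reads), and Pcdhac2 at 0.05 (hippocampus against cerebellum, deposited) and -0.10 (cortex against cerebellum, own reads). RLE size factors put Pcdhac2 at 0.02 (hippocampus against cerebellum, deposited). With total counts, hippocampus against cerebellum became -0.07 for the deposited rows of Pcdhac1 and Pcdhgc5 and -0.06 for shared alpha reads. Cortex against cerebellum became -0.12 for Pcdhac1, -0.05 for Pcdhac2 and -0.13 for shared gamma reads. With the mouse as replicate block, the 3 region pairs gave 29, 49 and 44 deposited rows and 42, 48 and 33 rows of own reads, and no count of calls moved by over 1.5 times. Depth limits the members of few own reads, such as Pcdha1, Pcdhga1 and, outside the cerebellum, Pcdhgb2. Fold changes of these members are not given.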
